A study of Mus musculus with 12 samples.

Results

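The genes described here are 8 members of the CXC chemokine family, Cxcl1, Cxcl2, Cxcl3, Cxcl9, Cxcl10, Cxcl12, Cxcl14 and Cxcl16, taken by gene name from a table of 34327 genes measured in mouse macrophages. CXC chemokines are small secreted proteins that direct the movement of leukocytes through G protein-coupled receptors on the responding cell. Cxcl1, Cxcl2 and Cxcl3 are the attractants of neutrophils, act through Cxcr2 and are classical NF-kB target genes of inflammatory macrophages. Cxcl9 and Cxcl10 are induced by interferons and attract T and NK cells through Cxcr3. Cxcl12 is the ligand of Cxcr4, Cxcl14 is a chemokine of resting tissues, and Cxcl16 is made as a transmembrane protein that is released by proteases of the ADAM family and binds Cxcr6.

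The cells were BMDMs, macrophages differentiated in culture from the bone marrow of wild-type C57BL/6 mice (given as C57BL/6J in the culture protocol) in medium conditioned by L929 cells, a fibroblast line that secretes the macrophage growth factor CSF1. They were embedded in floating gels of rat tail type I collagen at 2 mg/ml (low-collagen gels) or 7 mg/ml (high-collagen gels), or plated on tissue culture (TC) plates, and each environment was left untreated or received the type 2 cytokine IL-4 at 20 ng/ml, with 24 hours given in the labels. Each of the 6 conditions had 2 libraries of polyadenylated RNA, which gives 12 libraries. The study asked how macrophages combine the state of the matrix around them with the signal of IL-4, and the chemokines were compared here between untreated and IL-4-treated cells, between the gels, and between gels and TC plates. Whether the libraries of a condition came from separate cultures or animals is not stated, so p values measure the spread between these libraries, which may be technical.

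Values are TPM, the abundance of a gene's transcripts per unit of their length as a share of all transcripts of the library. They carry no sequencing depth, so no counting error can be attached to a low value, and an exact 0 can be a failed estimate. Differences are log2 fold changes on the log2(TPM + 1) scale, which understates the change of low genes, tested with limma on all genes with a mean of at least 1 TPM and called at a Benjamini-Hochberg adjusted p under 0.2. Between 11543 and 11910 genes reached 1 TPM in a library, and the libraries of a condition correlated across genes at r of 0.980 to 0.985. The treatment labels were checked with Arg1, the arginase that IL-4 induces in macrophages, which was at 1.76 to 46.3 TPM in the 6 untreated libraries and at 3069 to 7958 TPM in the 6 libraries with IL-4. All 8 macrophage markers reached 1 TPM in each condition. No dendritic cell marker of 6 and no lymphocyte marker of 7 did so in any condition, and of 8 fibroblast markers Postn alone did, at 3.66 to 8.03 TPM in gels with IL-4. Of 10 neutrophil markers, 4 reached 1 TPM in both TC plate conditions and in high-collagen gels with IL-4. In the other gel conditions 5 did so, and 1 marker was at 0 in all 12 libraries. The neutrophil markers summed to 19.9 to 25.2 TPM in untreated TC plates and to 168 to 188 TPM in low-collagen gels with IL-4. These conditions differ in both environment and IL-4. Csf3r made up most of the sums and rose with IL-4 in each environment (0.91, 1.20 and 0.75 in low-collagen gels, high-collagen gels and TC plates, limma adjusted p = 0.000151, 5.07e-05 and 0.000518). Among untreated cells, low- and high-collagen gels exceeded TC plates in Csf3r by more (2.485 and 2.114, limma adjusted p = 6.89e-08 and 1.58e-07). They also exceeded them in S100a9 (2.543 and 1.989, limma adjusted p = 0.000952 and 0.00402). S100a8 was called in low-collagen gels (1.187, 0.00778) and not in high-collagen gels (0.34, 0.362), and Ltf in neither. S100a8 (at most 12.5 TPM) fell with IL-4 in low- and high-collagen gels (−0.69 and −0.63, limma adjusted p = 0.0587 and 0.112) and S100a9 (at most 17.7 TPM) in low-collagen gels (−0.48, limma adjusted p = 0.199), while Ly6g was at 0 in every library and Mpo at no more than 0.079 TPM. Interferon response genes were highest in a pair of libraries, and values without both are given beside the results that they move. Replicate 2 of untreated low-collagen gels and replicate 1 of low-collagen gels with IL-4 summed to 954 and 713 TPM over 24 such genes, against 221 to 686 TPM in the other 10 libraries. The library at 686 TPM, replicate 2 of untreated high-collagen gels, was close to the second of these and was kept when both were left out.

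The members lie on 4 chromosomes of the mouse genome (GRCm38), and all are protein coding. The neutrophil attractants form a cluster of 119.8 kb on chromosome 5, with Cxcl3 at chr5:90786103-90789600, Cxcl1 at chr5:90891241-90893115 and Cxcl2 at chr5:90903871-90905938, all on the plus strand. The interferon-linked pair lies 1415 kb further on the same chromosome, on the minus strand, with Cxcl9 at chr5:92321347-92328079 and Cxcl10 at chr5:92346638-92348889. The other 3 members stand alone, Cxcl12 at chr6:117168535-117181367 (plus strand), Cxcl14 at chr13:56288643-56296551 (minus strand) and Cxcl16 at chr11:70453983-70459984 (minus strand). Similar transcripts can exchange reads. Of the 31-base words in Cxcl2 transcripts, 7.59% also occur in other genes, in Cxcl3 above all, and the share was 5.46% for Cxcl3, 4.47% for Cxcl10 (with Art3) and 18.5% for Cxcl16 (with Zmynd15). Cxcl1 and Cxcl14 share none. Art3 was at no more than 0.367 TPM and Zmynd15 at 0.715 to 10.4 TPM, both far below the chemokine they overlap in the untreated libraries.

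The sequences upstream of the neutrophil attractants and of Cxcl10 are shown because neutrophil attractants and interferon-linked chemokines are contrasted here. Each line runs 5′ to 3′ toward the gene, from RefSeq on GRCm38.p6, and begins 250 bases before the RefSeq start. The bases that the gene annotation places inside Cxcl1 (4 bases) and Cxcl2 (28 bases) were left off. Capitals mark matches to the NF-kB consensus and to GAAA, any 2 bases and GAAA again, the core of the interferon-stimulated response element (ISRE), on either strand. The stretches are chr5:90890995-90891240 (Cxcl1, plus strand), chr5:90903649-90903870 (Cxcl2, plus strand), chr5:90785851-90786100 (Cxcl3, plus strand) and chr5:92348890-92349139 (Cxcl10, minus strand).
Cxcl1: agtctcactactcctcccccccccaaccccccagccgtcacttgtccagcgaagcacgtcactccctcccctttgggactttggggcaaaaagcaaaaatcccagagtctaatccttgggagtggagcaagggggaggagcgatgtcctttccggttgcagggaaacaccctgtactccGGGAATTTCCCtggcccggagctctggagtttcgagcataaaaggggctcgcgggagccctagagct
Cxcl2: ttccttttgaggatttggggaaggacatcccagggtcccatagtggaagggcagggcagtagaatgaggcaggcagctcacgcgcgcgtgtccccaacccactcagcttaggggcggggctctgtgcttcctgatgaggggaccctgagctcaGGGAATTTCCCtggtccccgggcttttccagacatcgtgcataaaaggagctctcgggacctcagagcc
Cxcl3: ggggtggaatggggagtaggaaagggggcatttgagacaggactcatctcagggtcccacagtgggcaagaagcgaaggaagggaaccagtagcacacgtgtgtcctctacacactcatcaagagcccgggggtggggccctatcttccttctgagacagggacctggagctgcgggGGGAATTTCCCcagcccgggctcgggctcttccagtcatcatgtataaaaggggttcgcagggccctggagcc
Cxcl10: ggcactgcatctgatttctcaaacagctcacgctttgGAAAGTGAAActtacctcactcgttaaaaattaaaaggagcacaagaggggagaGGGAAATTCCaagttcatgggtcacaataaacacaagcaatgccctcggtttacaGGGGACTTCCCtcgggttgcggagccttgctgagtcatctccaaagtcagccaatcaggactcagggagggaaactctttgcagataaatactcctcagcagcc
The capitals in the 3 attractants hold the same letters, GGGAATTTCC, which begin 71 bases before the RefSeq start in Cxcl1, 97 in Cxcl2 and 73 in Cxcl3. These distances include the 4 bases left off in Cxcl1 and the 28 left off in Cxcl2, so they depend on the start used. An overlapping match on the other strand, shifted by 1 base, makes the run of capitals 1 base longer. Cxcl10 held an NF-kB match at GGGAAATTCC, beginning 159 bases before the start, and overlapping matches at GGGGACTTCC and GGGACTTCCC, beginning 104 and 103 bases before it. It was the only stretch of the 4 with a match to the ISRE core, at GAAAGTGAAA, beginning 213 bases before the start. Of the other members with a stretch in the table, Cxcl14 held GAAACAGAAA 172 bases before its start, and Cxcl9 and Cxcl12 held neither motif. None of the 7 stretches held TTC, any 4 bases and GAA, the spacing bound by STAT6. Of 32851 upstream stretches of this length, 7.25% held the NF-kB consensus, 2.98% the ISRE core and 5.85% the STAT6 spacing. A match is a run of letters and was not tested as a binding site.

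The chemokines differed widely in abundance. Cxcl16 was the most abundant, with a mean of 131 TPM over the 12 libraries, which ranked it 1095th of all genes. Cxcl14 averaged 20.1 TPM, Cxcl2 14.6 TPM and Cxcl10 3.17 TPM. Cxcl1 (0.740 TPM), Cxcl3 (0.401 TPM), Cxcl9 (0.0863 TPM) and Cxcl12 (0.0771 TPM) stayed below the filter, so 4 of the 8 members entered the main test and 4 did not. Cxcl9 was listed at 0 in 3 libraries and reached 0.179 TPM at most, and Cxcl12 was listed at 0 in 5 libraries and reached 0.253 TPM at most, so both were near 0 in these macrophages. Summed over the 8 members, the TPM was 213 to 242 in the 6 untreated libraries, 118 to 148 in gels with IL-4 and 55.8 to 64.5 on TC plates with IL-4. Cxcl16 made up 50.3% to 51.4% of this sum on TC plates with IL-4 and 89.6% to 91.5% in gels with IL-4.

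**Figure D1:**
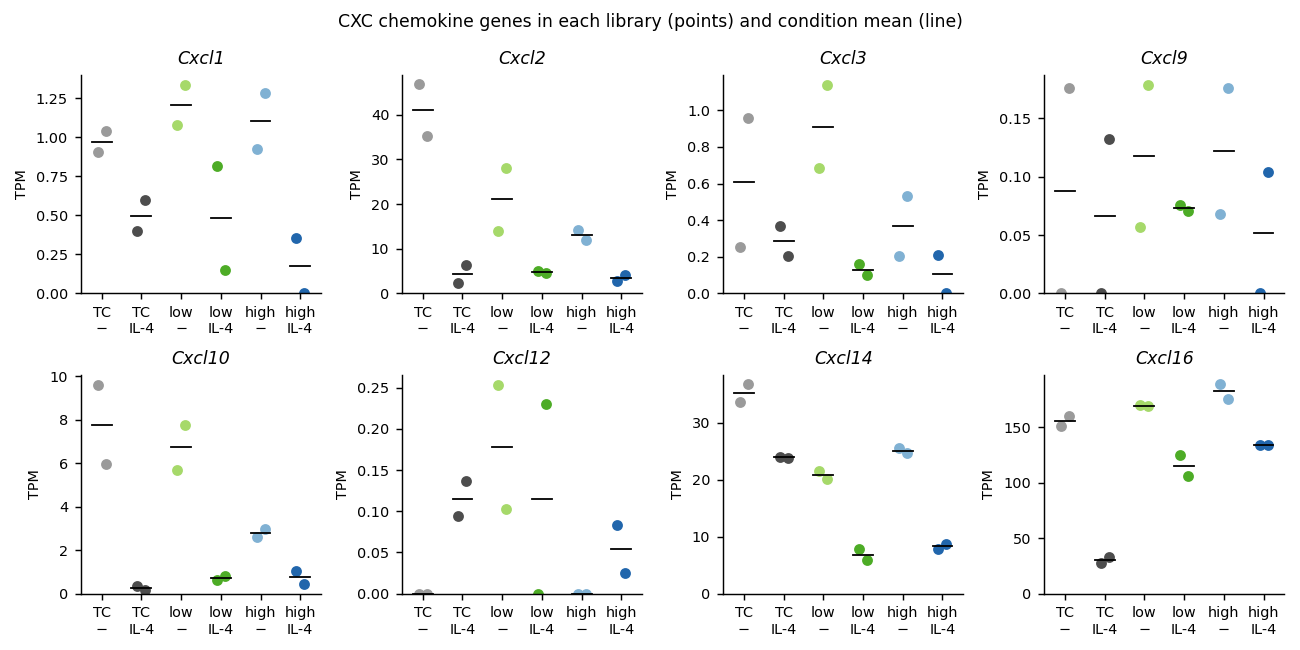
TPM (linear axes that start at 0 and differ between panels) of each of the 8 chemokine genes in the 12 libraries, with points for libraries and a line for the mean of the 2 libraries of a condition (TC, TC plates; low, low-collagen gels; high, high-collagen gels; −, untreated). Cxcl2, Cxcl10, Cxcl14 and Cxcl16 are lower with IL-4 than without it in every environment, and no library exceeds 0.179 TPM in Cxcl9 or 0.253 TPM in Cxcl12.

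Without IL-4 the neutrophil attractants were present at very unequal levels, and Cxcl2, the most abundant, fell with IL-4 in each environment. Cxcl2 was at 46.8 and 35.3 TPM in untreated TC plates, 14.1 and 28.2 TPM in untreated low-collagen gels and 14.2 and 11.9 TPM in untreated high-collagen gels. After IL-4 it was at 2.43 and 6.31 TPM on TC plates, 5.00 and 4.55 TPM in low-collagen gels and 2.81 and 4.21 TPM in high-collagen gels. All untreated libraries lay above all IL-4-treated ones, and with IL-4 the values on TC plates spanned those of both gels. The mean fell from 41.0 to 4.37 TPM on TC plates (9.38-fold, log2 fold change −3.05 ± 0.38 SE, limma adjusted p = 0.000265). It fell from 21.1 to 4.78 TPM in low-collagen gels (4.42-fold, −1.86 ± 0.30, limma adjusted p = 0.00303) and from 13.04 to 3.51 TPM in high-collagen gels (3.71-fold, −1.65 ± 0.30, limma adjusted p = 0.00825). In bulk RNA, fewer cells that make a transcript and less of it per cell cannot be told apart, here and in each result that follows.

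Cxcl1 and Cxcl3 were low, and their calls depended on the environment and on the filter. Cxcl1 was at 0.905 and 1.04 TPM on TC plates, 1.08 and 1.33 TPM in low-collagen gels and 0.922 and 1.28 TPM in high-collagen gels without IL-4. With IL-4 it was at 0.399 and 0.598, at 0.813 and 0.152, and at 0.355 and 0 TPM in the same order. The highest library with IL-4 (0.813 TPM) lay below the lowest untreated one (0.905 TPM). Cxcl3 was at 0.204 to 1.14 TPM in the untreated libraries and at 0 to 0.371 TPM with IL-4, and these ranges overlapped. In low-collagen gels, where Cxcl3 was highest, it was at 0.683 and 1.14 TPM without and at 0.161 and 0.0995 TPM with IL-4. Without the filter on low genes, 20542 genes were tested in gels, and Cxcl3 then fell in low-collagen gels (−0.75 ± 0.18, limma adjusted p = 0.0437) and Cxcl1 in high-collagen gels (−0.85 ± 0.26, limma adjusted p = 0.138), where 29.2% and 17.5% of those genes were called. In the same fit Cxcl1 had a limma adjusted p of 0.205 in low-collagen gels, and neither gene was called on TC plates. Both values rest on libraries near 1 TPM or below, and Cxcl3 shares words with the more abundant Cxcl2.

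Of the interferon-linked pair, Cxcl10 alone reached 1 TPM, and it fell with IL-4 in each environment. Cxcl10 was at 9.59 and 5.95 TPM in untreated TC plates, 5.71 and 7.75 TPM in untreated low-collagen gels and 2.62 and 2.97 TPM in untreated high-collagen gels. After IL-4 it was at 0.340 and 0.187 TPM on TC plates, 0.627 and 0.823 TPM in low-collagen gels and 1.06 and 0.430 TPM in high-collagen gels. Here too all untreated libraries lay above all IL-4-treated ones, of which 5 of 6 were below 1 TPM, so the gene passed the filter through its untreated libraries. The log2 fold change with IL-4 was −2.77 ± 0.27 (SE) on TC plates (29.5-fold between the means, limma adjusted p = 5.2e-05), −2.15 ± 0.25 in low-collagen gels (9.28-fold, limma adjusted p = 0.000673) and −1.14 ± 0.25 in high-collagen gels (3.75-fold, limma adjusted p = 0.0198). With a pseudocount of 0.1 in place of 1, the value was −4.43 on TC plates and −1.88 in high-collagen gels (limma adjusted p = 8.11e-05 and 0.0244). Cxcl9 was at 0 to 0.179 TPM without and at 0 to 0.132 TPM with IL-4, and it was not called in any comparison of the fit without the filter.

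Outside these groups, Cxcl14 and Cxcl16 also fell with IL-4, Cxcl14 more in gels and Cxcl16 more on TC plates. Cxcl14 was at 33.7 and 36.9 TPM in untreated TC plates and at 24.1 and 23.8 TPM with IL-4, a fall of 0.54 ± 0.12 (SE) on the log2 scale (1.47-fold, limma adjusted p = 0.0104). In low-collagen gels it was at 21.5 and 20.1 TPM without and at 7.81 and 5.88 TPM with IL-4 (−1.48 ± 0.14, 3.04-fold, limma adjusted p = 0.000225). In high-collagen gels it was at 25.5 and 24.7 TPM without and at 7.89 and 8.78 TPM with IL-4 (−1.48 ± 0.14, 3.01-fold, limma adjusted p = 0.000338). The gels with IL-4 thus held the 4 lowest libraries of Cxcl14. For Cxcl16 the lowest libraries were on TC plates. There it was at 151 and 160 TPM without and at 28.1 and 33.1 TPM with IL-4 (−2.31 ± 0.10, 5.09-fold, limma adjusted p = 2.09e-07). In low-collagen gels it was at 170.0 and 169 TPM without and at 125 and 106 TPM with IL-4 (−0.56 ± 0.09, 1.47-fold, limma adjusted p = 0.00258), and in high-collagen gels at 189 and 176 TPM without and at 134 TPM in both libraries with IL-4 (−0.44 ± 0.09, 1.36-fold, limma adjusted p = 0.0117). No library outside TC plates with IL-4 came below 105.8 TPM. Zmynd15, the gene that shares words with Cxcl16, averaged 4.26 TPM in untreated TC plates and 0.814 TPM with IL-4. It averaged 9.20 TPM without and 3.23 TPM with IL-4 in low-collagen gels, and 7.58 and 3.35 TPM in high-collagen gels.

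Across the family, the 4 members tested thus fell with IL-4 in each environment. Of all genes tested, 40.4% were called lower and 13.2% higher in low-collagen gels, 22.8% and 11.5% in high-collagen gels, and 24.0% and 14.7% on TC plates. These shares depend on the scaling of the libraries. Over all genes the median was −0.19, −0.10 and −0.06 in the 3 environments on the log2 scale and 0.00 in each after the libraries were rescaled by their median ratio, which turned 1567 genes called higher and 4784 lower in low-collagen gels into 2848 and 2412, 1366 and 2698 in high-collagen gels into 2013 and 1728, and 1745 and 2853 on TC plates into 2299 and 2359. After rescaling the 4 members were still called lower in each environment, with the smallest values for Cxcl16 in low-collagen gels (−0.34, limma adjusted p = 0.0165) and high-collagen gels (−0.33, limma adjusted p = 0.0264). Without both libraries that were high in interferon response genes, the values in low-collagen gels were −1.44 for Cxcl2 (limma adjusted p = 0.0352), −1.88 for Cxcl10 (0.0370), −1.71 for Cxcl14 (0.00433) and −0.68 for Cxcl16 (0.0129).

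**Figure D2:**
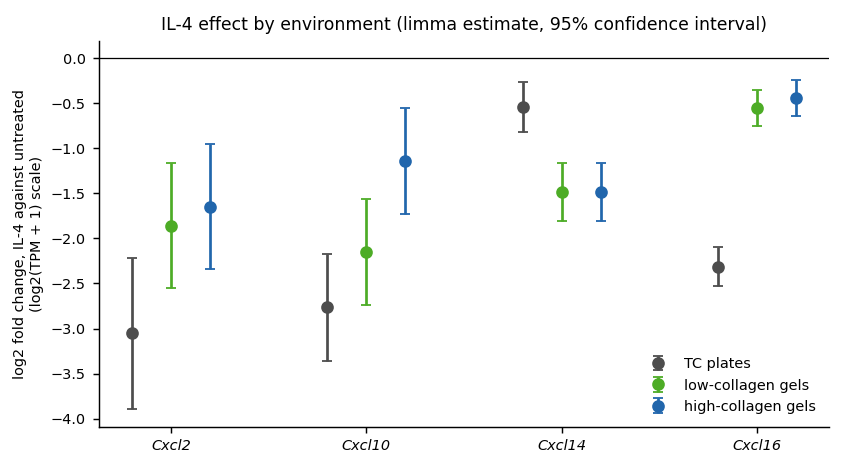
Log2 fold change with IL-4 against untreated cells (log2(TPM + 1) scale) of the 4 members that entered the test, with points for the limma estimate and bars for its 95% confidence interval, on TC plates, in low-collagen gels and in high-collagen gels. All 12 intervals lie below 0, with the points of Cxcl14 lower in the gels than on TC plates and that of Cxcl16 lower on TC plates than in the gels.

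The difference between environments was tested as the IL-4 effect in gels minus that on TC plates. For Cxcl16 it was 1.76 ± 0.13 (SE) on the log2 scale in low-collagen gels (limma adjusted p = 0.000123) and 1.87 ± 0.13 in high-collagen gels (limma adjusted p = 9.8e-05), a smaller fall in gels. For Cxcl14 it was −0.94 ± 0.17 in both (limma adjusted p = 0.00864 and 0.0108), a larger fall in gels. For Cxcl10 it was 1.62 ± 0.38 in high-collagen gels (limma adjusted p = 0.0329, or 2.55 with a pseudocount of 0.1) and 0.61 ± 0.38 in low-collagen gels (limma adjusted p = 0.333, 95% interval −0.23 to 1.46). Between the means, Cxcl10 fell 29.5-fold on TC plates and 9.28-fold in low-collagen gels, and the log2(TPM + 1) scale understates changes at such low levels. For Cxcl2 the difference between environments was 1.19 ± 0.53 in low-collagen gels (limma adjusted p = 0.187) and 1.40 ± 0.53 in high-collagen gels (limma adjusted p = 0.168). The Cxcl2 calls were lost in 10 of 16 alternative fits in low-collagen gels and in 9 of 15 in high-collagen gels, also when single libraries were left out, with values between 0.65 and 1.74 in low-collagen gels (limma adjusted p from 0.0677 to 0.436) and between 0.86 and 1.95 in high-collagen gels (0.0622 to 0.381). The lowest values came without replicate 1 of TC plates with IL-4, in which Cxcl2 was at 2.43 TPM. Of all genes tested, 28.0% were called in low-collagen gels and 17.3% in high-collagen gels, and both comparisons share the TC libraries. After rescaling, 1104 genes called higher and 2215 lower in low-collagen gels became 1763 and 1176, and 1028 and 1022 in high-collagen gels became 1313 and 827.

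Cxcl14 and Cxcl16 could be set against each other within a library, since TPM are per length. The ratio of Cxcl16 to Cxcl14 TPM was 4.48 and 4.35 in untreated TC plates, 7.91 and 8.43 in untreated low-collagen gels and 7.42 and 7.13 in untreated high-collagen gels. In IL-4-treated cells it was 1.17 and 1.39 on TC plates, 16.0 and 18.01 in low-collagen gels and 16.9 and 15.3 in high-collagen gels. IL-4 libraries thus had the lowest ratios on TC plates and the highest in gels, with untreated libraries between them. The ratio of Cxcl2 to Cxcl10, which sets a neutrophil attractant against an interferon-linked chemokine, was 4.88 and 5.93 in untreated TC plates, 2.47 and 3.64 in untreated low-collagen gels and 5.43 and 3.995 in untreated high-collagen gels. With IL-4 it was 7.15 and 33.7 on TC plates, 7.98 and 5.53 in low-collagen gels and 2.65 and 9.79 in high-collagen gels. On TC plates and in low-collagen gels both ratios with IL-4 lay above both untreated ones, while in high-collagen gels the ranges overlapped. The groups with IL-4 overlapped each other, and the highest ratio rested on a Cxcl10 value of 0.187 TPM. Between the means on TC plates, Cxcl10 fell 29.5-fold and Cxcl2 9.38-fold, whereas the log2(TPM + 1) scale ordered these falls the other way. These ratios are a description and were not tested.

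**Figure D3:**
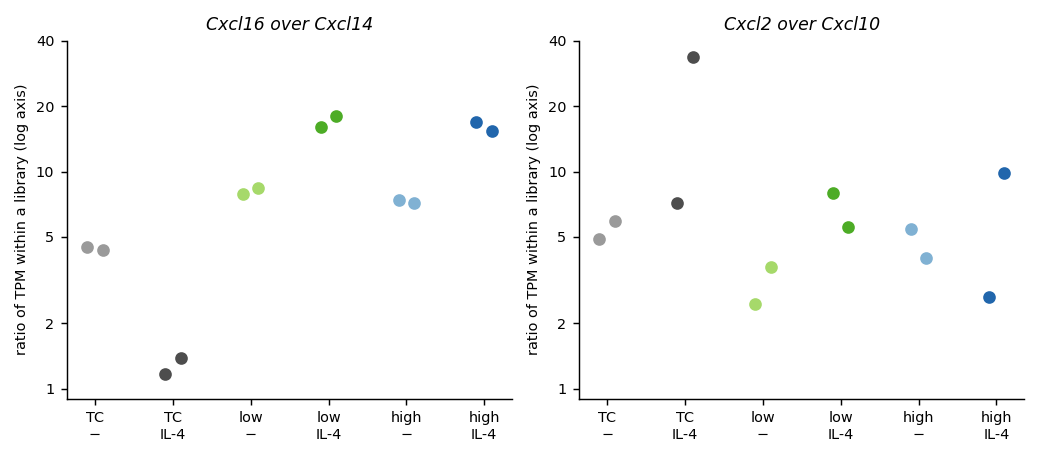
Ratio of TPM within each library (log axis), Cxcl16 over Cxcl14 on the left and Cxcl2 over Cxcl10 on the right, with 1 point per library in the 6 conditions. The left panel separates TC plates with IL-4 (1.17 and 1.39) from gels with IL-4 (15.3 to 18.01), while in the right panel the conditions with IL-4 overlap.

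Between low- and high-collagen gels, 1 member was called without IL-4 and another with it. Without IL-4, Cxcl10 was lower in high-collagen gels (2.62 and 2.97 TPM) than in low-collagen gels (5.71 and 7.75 TPM), with a log2 fold change of −1.02 ± 0.25 (SE, limma adjusted p = 0.123, 2.41-fold between the means). It was the 1 member of the 4 tested that was called, against 8.02% of all genes, and 4.79% were called lower (383 higher and 568 lower, 440 and 428 after rescaling). The call was lost when replicate 1 (−0.95, limma adjusted p = 0.333) or replicate 2 (−1.08, 0.283) of untreated high-collagen gels was left out, without replicate 2 of untreated low-collagen gels (−0.82, 0.346), and without both libraries high in interferon response genes (−0.82, 0.396). Cxcl2 was at 14.1 and 28.2 TPM in low-collagen and at 14.2 and 11.9 TPM in high-collagen gels, ranges that overlapped (−0.58, 95% interval −1.28 to 0.11, limma adjusted p = 0.397), and it was called once replicate 1 of untreated low-collagen gels was left out (−1.06, 0.150). The intervals were −0.06 to 0.58 for Cxcl14 (limma adjusted p = 0.420) and −0.10 to 0.30 for Cxcl16 (0.617). Cxcl3, below the filter, was at 0.204 and 0.530 TPM in high-collagen and at 0.683 and 1.14 TPM in low-collagen gels (limma adjusted p = 0.371 without the filter).

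With IL-4, Cxcl16 was higher in high-collagen gels (134 TPM in both libraries) than in low-collagen gels (125 and 106 TPM), by 0.22 ± 0.09 on the log2 scale (1.16-fold, limma adjusted p = 0.187). Of all genes, 21.1% were called in this comparison, 14.1% higher and 6.99% lower, and 1170 were higher and 1389 lower after rescaling against 1672 and 828 before it. The Cxcl16 call was lost after rescaling (0.14, limma adjusted p = 0.339), without either high-collagen library with IL-4 (0.22 and 0.21, limma adjusted p = 0.350 and 0.438) and without replicate 2 of low-collagen gels with IL-4 (0.10, 0.623). Cxcl14 was at 7.89 and 8.78 TPM in high-collagen and 7.81 and 5.88 TPM in low-collagen gels (0.26, limma adjusted p = 0.311), and it was called without replicate 1 of low-collagen gels with IL-4 (0.44, 0.175). Cxcl2 (−0.37, 95% interval −1.07 to 0.32) and Cxcl10 (−0.005, −0.59 to 0.58) were not called. The interaction, which subtracts the IL-4 effect in low-collagen from that in high-collagen gels, was called in limma for 0 of the 4 members and for 0.363% of all genes, and 1 of the 4 had an unadjusted p under 0.05. That member was Cxcl10, with 1.01 ± 0.36 (SE, limma adjusted p = 0.449).

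Between gels and TC plates most genes differed, with 72.8% to 75.1% of all genes called in each comparison, and so did most members tested. Without IL-4, Cxcl2 was lower in low-collagen gels (−0.99 ± 0.38 SE, 1.94-fold, limma adjusted p = 0.0438) and high-collagen gels (−1.57 ± 0.38, 3.15-fold, limma adjusted p = 0.00462) than on TC plates. The first of these was lost without replicate 1 of untreated low-collagen gels (−0.51, limma adjusted p = 0.314). Cxcl14 was lower in both gels (−0.74, limma adjusted p = 0.000533, and −0.48, 0.00706), the latter −0.30 after rescaling (0.0365). Cxcl10 was lower in high-collagen gels (−1.18 ± 0.27, 2.78-fold, limma adjusted p = 0.00335), whereas in low-collagen gels its libraries (5.71 and 7.75 TPM) overlapped those of TC plates (5.95 and 9.59 TPM). Cxcl16 was 1.17-fold higher in high-collagen gels (0.23, limma adjusted p = 0.0614, or 0.41 after rescaling), which was lost without replicate 1 of untreated TC plates (0.19, 0.233) or of untreated high-collagen gels (0.18, 0.248), and in low-collagen gels it was called after rescaling (0.28, 0.0166) and not before (0.12, 0.288). Counted over the members, 2 of 4 were called in low-collagen gels and 4 of 4 in high-collagen gels, where 72.8% and 73.5% of all genes were called. Rescaling moved the median of all genes by 0.14 and 0.16 in these comparisons and by 0.28 and 0.21 in those with IL-4. Without IL-4, 3383 genes called higher and 5257 lower in low-collagen gels became 4304 and 4351, and 3318 and 5403 in high-collagen gels became 4313 and 4431. With IL-4, 2708 and 6198 became 4269 and 4282, and 3148 and 5704 became 4377 and 4400.

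With IL-4, the order of Cxcl16 and Cxcl14 between gels and TC plates was opposite. Cxcl16 was 3.78-fold higher in low-collagen gels (1.88 ± 0.10 SE, limma adjusted p = 3.7e-07) and 4.38-fold higher in high-collagen gels (2.10 ± 0.10, limma adjusted p = 1.43e-07) than on TC plates. Cxcl14 was 3.499-fold lower in low-collagen gels (−1.68 ± 0.12, limma adjusted p = 2.75e-06) and 2.87-fold lower in high-collagen gels (−1.42 ± 0.12, limma adjusted p = 6.62e-06). Cxcl2 was called in neither gel (0.20, limma adjusted p = 0.661, and −0.17, 0.718), with 2.43 and 6.31 TPM on TC plates around the values of the gels. It was called in low-collagen gels without replicate 2 of TC plates with IL-4 (0.75, 0.114) and in high-collagen gels without replicate 1 (−0.71, 0.126). Cxcl10 was called higher in both gels (0.45, limma adjusted p = 0.168, and 0.44, 0.174) at levels around or below 1 TPM, and the pseudocount set the size, with 1.20 and 1.14 at 0.1 (limma adjusted p = 0.0392 and 0.0485). The Cxcl10 call in low-collagen gels was lost without any 1 of the 4 libraries compared (0.36 to 0.54, limma adjusted p from 0.203 to 0.395), and also without both libraries high in interferon response genes (0.53, 0.227). In high-collagen gels it was lost without replicate 1 (0.53, 0.209) or replicate 2 (0.36, 0.394) of TC plates with IL-4 and without replicate 1 of high-collagen gels with IL-4 (0.18, 0.642). In these comparisons 3 of the 4 members tested were called in each gel, where 75.1% (low-collagen gels) and 74.6% (high-collagen gels) of all genes were called.

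By mean TPM, Cxcl16 ordered as untreated high-collagen gels (183 ± 9.57 SD, n = 2), untreated low-collagen gels (170 ± 0.463), untreated TC plates (156 ± 6.71), high-collagen gels with IL-4 (134 ± 0.526), low-collagen gels with IL-4 (116 ± 13.7) and TC plates with IL-4 (30.6 ± 3.58). Untreated low-collagen gels did not differ at the threshold from either neighbour. Cxcl14 ordered as untreated TC plates (35.3 ± 2.25), untreated high-collagen gels (25.1 ± 0.612), TC plates with IL-4 (23.9 ± 0.2004), untreated low-collagen gels (20.8 ± 1.00), high-collagen gels with IL-4 (8.34 ± 0.630) and low-collagen gels with IL-4 (6.85 ± 1.37). The last pair did not differ at the threshold. In both orders, neighbours that differ in environment and in IL-4 at once were not compared.

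The other CXC chemokine genes were present at unequal levels. Pf4, a chemokine best known from platelets, was at 812 to 1159 TPM in all 12 libraries, above every one of the 8 members. It fell 0.24 ± 0.05 (SE) on the log2 scale with IL-4 on TC plates (limma adjusted p = 0.00595) and was not called with IL-4 in low-collagen (−0.05, 0.482) or high-collagen gels (0.02, 0.877). Ppbp, another chemokine of platelets and a ligand of Cxcr2, was at 1.00 and 1.40 TPM in untreated TC plates and at 2.16 to 2.65 TPM in untreated gels. With IL-4 it was at 0.185 and 0.281 TPM in low-collagen gels (−1.46 ± 0.24, limma adjusted p = 0.00366) and at 0.870 and 1.53 TPM in high-collagen gels (−0.69 ± 0.24, limma adjusted p = 0.101). Cxcl11, a further ligand of Cxcr3, did not exceed 0.474 TPM, Cxcl5 and Cxcl15 did not exceed 0.240 TPM, and Cxcl13 and Cxcl17 were listed at 0 in every library.

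Of the receptors, 2 of 8 averaged at least 1 TPM. Cxcr4, the receptor of Cxcl12, was at 58.9 and 65.5 TPM in untreated TC plates and at 153 to 177 TPM in untreated gels. It fell with IL-4 in low-collagen gels to 76.2 and 71.1 TPM (−1.12 ± 0.08, limma adjusted p = 6.06e-05), in high-collagen gels to 125 and 112 TPM (−0.56 ± 0.08, limma adjusted p = 0.00323) and on TC plates to 48.1 and 40.5 TPM (−0.48 ± 0.10, limma adjusted p = 0.00576). With IL-4 it was higher in high- than in low-collagen gels (0.68 ± 0.08, limma adjusted p = 0.00986), while its own ligand was near 0. Cxcr3, the receptor of Cxcl9 and Cxcl10, was at 4.22 to 6.85 TPM in the untreated libraries and at 2.02 to 3.09 TPM with IL-4, and it fell in all 3 environments (limma adjusted p = 0.0849, 0.0649 and 0.0016 in low-collagen gels, high-collagen gels and TC plates). Cxcr2, through which the neutrophil attractants act, was at 0.513 to 1.49 TPM and did not enter the main test. Its mean was higher with IL-4 in each environment. It was 0.645 TPM without and 0.944 TPM with IL-4 on TC plates, 0.809 and 1.08 TPM in low-collagen gels, and 0.698 and 1.31 TPM in high-collagen gels. In low-collagen gels the libraries with and without IL-4 overlapped. Cxcr6, the receptor of Cxcl16, did not exceed 0.082 TPM. Of the genes that shed, cleave or bind CXC chemokines, 4 of 6 were tested. The proteases that release Cxcl16 were both expressed, Adam10 at 64.4 to 128 TPM and Adam17 at 82.5 to 125 TPM. With IL-4 on TC plates, where Cxcl16 fell most, Adam10 rose by 0.22 (limma adjusted p = 0.158) and Adam17 fell by 0.55 (limma adjusted p = 0.000277). Counted over this list of 4, 2 were called higher and 1 lower with IL-4 in low-collagen gels (3 and 0 after rescaling), 2 and 0 in high-collagen gels (3 and 0), and 3 and 1 on TC plates (3 and 1), beside the 13.2%, 11.5% and 14.7% of all genes called higher and 40.4%, 22.8% and 24.0% lower. Sdc4, a heparan sulfate proteoglycan, was the largest rise in each (1.53, 1.20 and 1.43, limma adjusted p = 1.35e-05, 6.92e-05 and 1.23e-06).

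NF-kB response genes, a list that leaves out the chemokines themselves, moved in both directions with IL-4. Of 20 tested, 3 were called higher and 14 lower in low-collagen gels (median −0.47, against −0.19 for all genes), 3 and 12 in high-collagen gels (−0.30, against −0.10) and 6 and 13 on TC plates (−0.37, against −0.06). Over all genes, 13.2% were called higher and 40.4% lower in low-collagen gels, 11.5% and 22.8% in high-collagen gels and 14.7% and 24.0% on TC plates. After rescaling the counts of the list were 4 and 10, 5 and 10, and 6 and 11, and without both libraries high in interferon response genes they were 2 and 11 in low-collagen gels. The largest fall in both gels was Il1b, an inflammatory cytokine (−3.09 and −2.46, limma adjusted p = 0.000634 and 0.00308, low-collagen gels first), and the largest rise was Ier3 (1.21 and 1.13, limma adjusted p = 0.000142 and 0.000297). On TC plates Nfkbiz, a regulator of NF-kB targets, fell most (−2.06, limma adjusted p = 3.95e-06) and Zc3h12a, an RNase that degrades inflammatory transcripts, rose most (1.24, limma adjusted p = 9.32e-06). Between the gels, 1 gene was called higher and 4 lower in high-collagen gels without IL-4 (3.23% and 4.79% of all genes), and 2 and 4 with it (14.1% and 6.99% of all genes). Without both libraries limma called 0 of the 20 without IL-4 (5 had an unadjusted p under 0.05), and 3 higher and 2 lower with it.

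Most of the interferon response genes tested fell with IL-4 on TC plates, as did Cxcl10. With IL-4, 1 was called higher and 19 lower of 23 tested on TC plates (median −1.16), 2 and 9 of 25 in low-collagen gels (−0.56) and 1 and 13 of 25 in high-collagen gels (−0.62), where 24.0%, 40.4% and 22.8% of all genes were called lower. Before rescaling, the share in low-collagen gels was thus below that of all genes. After rescaling 1 was called higher and 19 lower on TC plates, 3 and 7 in low-collagen gels and 1 and 11 in high-collagen gels. Of all genes, 2359 of 11865, 2412 of 11840 and 1728 of 11840 were then called lower, so the share of the list in low-collagen gels was above that of all genes. Without both libraries high in these genes, 2 were called higher and 10 lower of 22 in low-collagen gels. The largest fall in each was Ifit3, an interferon-induced gene (−3.15, −2.15 and −2.75, limma adjusted p = 0.0027, 0.0297 and 0.0179), and the largest rise was Socs1 (4.77, 6.62 and 6.00, limma adjusted p = 2.42e-08, 1.43e-07 and 3.07e-07), an inhibitor of cytokine signaling that IL-4 itself induces. The difference between environments, tested per gene, was called higher in gels for 6 of 23 in low-collagen gels, led by Usp18 (2.08, limma adjusted p = 0.0214), and for 5 of 23 in high-collagen gels, led by Irf7 (1.43, limma adjusted p = 0.1995), and lower for 0 of 23 in both, with 0 lower at an unadjusted p under 0.05. Of all genes, 9.30% and 8.66% were called higher and 18.7% and 8.61% lower. After rescaling the list counts called higher were 9 and 5 of 23, and without both libraries 8 of 22 in low-collagen gels. Between high- and low-collagen gels without IL-4, where Cxcl10 was called lower, limma called 0 of 25 interferon response genes, 2 of which were lower at an unadjusted p under 0.05 (median −0.28, against −0.02 for all genes). With IL-4, where Cxcl10 was at 0.627 and 0.823 TPM in low-collagen gels and at 1.06 and 0.430 TPM in high-collagen gels, 4 of 25 were called lower in high-collagen gels, led by Usp18 (−1.13, limma adjusted p = 0.115), where 6.99% of all genes were called lower. Without both libraries high in this list, 2 of 22 were called lower and Usp18 was not called (−0.76, limma adjusted p = 0.231).

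The libraries of low-collagen gels ordered differently in Cxcl10 and in this list. Replicate 1 of low-collagen gels with IL-4 had a mean log2(TPM + 1) of 4.40 over 24 interferon response genes (Socs1 left out), above the 4.01 of replicate 1 of untreated low-collagen gels. Cxcl10 was at 0.627 TPM in the first library and at 5.71 TPM in the second. Replicate 2 of the same IL-4 group had a mean of 3.44 and 0.823 TPM of Cxcl10. Ifng was at 0 in all 12 libraries and Ifnb1 at no more than 0.796 TPM, while the receptors were expressed, Ifngr1 at 88.2 to 399 TPM, Ifngr2 at 91.0 to 121 TPM, Ifnar1 at 51.5 to 76.0 TPM and Ifnar2 at 117 to 221 TPM.

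**Figure D4:**
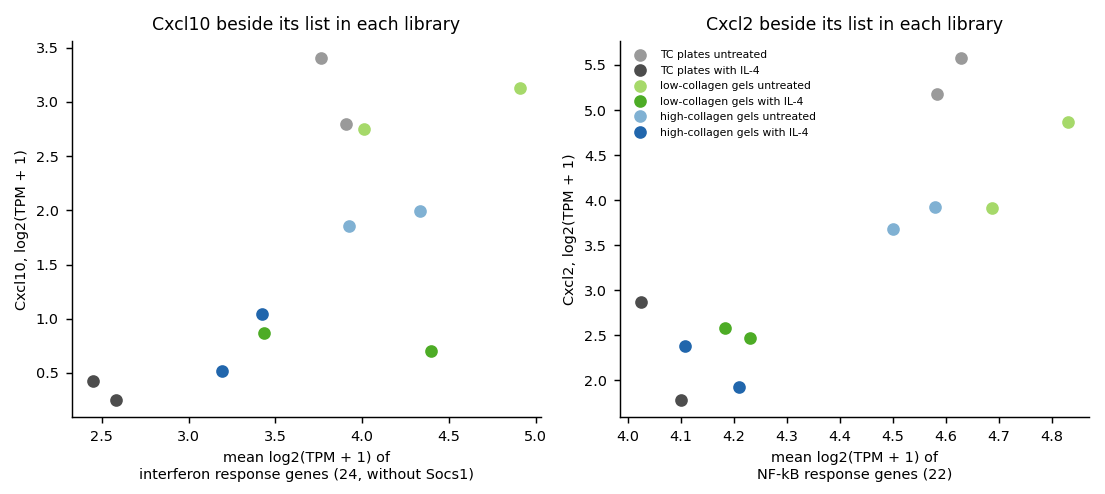
Left, log2(TPM + 1) of Cxcl10 against the mean log2(TPM + 1) of 24 interferon response genes, and right, of Cxcl2 against the mean of 22 NF-kB response genes, with 1 point per library coloured by condition as listed in the right panel. The low-collagen library with IL-4 at a list mean of 4.40 lies low in Cxcl10, and in the right panel the 6 libraries with IL-4 lie at list means of 4.02 to 4.23 and the 6 untreated ones at 4.50 to 4.83.

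Genes whose pattern over the 12 libraries was closest to that of a member were sought among those with a mean of at least 5 TPM, by the root-mean-square difference of log2(TPM + 1) values centred on each gene's mean. The closest to Cxcl16 were Lsp1 (0.155), Prdx5 (0.178) and Gpr141 (0.187), and to Cxcl14 Arhgap24 (0.213), Pik3ap1 (0.243) and Spry2 (0.249). For Cxcl10 they were Marco (0.369), Pram1 (0.456) and Tlr2 (0.461), and for Cxcl2 Pram1 (0.475), Cd14 (0.584) and Stk17b (0.588). Pram1 was the 1 gene named for both Cxcl2 and Cxcl10, and no gene was named for another pair of members.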

How the data were processed

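RNA of BMDMs was extracted by the authors, made into stranded mRNA libraries (TruSeq) and sequenced from both ends. Abundances were estimated by the authors with kallisto 0.46.1 on the Ensembl transcriptome of GRCm38 and deposited as 1 table of TPM per gene and library. How transcripts were summed to genes is not given in the sources used here. Of 34456 lines, 129 repeated a gene and were dropped, leaving 34327 genes. Depth is unknown, so no interval or detection limit is given.

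Members were found by gene name. They and the gene lists were chosen with earlier results of these data known. TPM were taken as log2(TPM + 1) and fitted with limma 3.58.1 (R 4.3.3), 1 mean per condition, variances moderated along a trend with the mean, and p values adjusted by Benjamini-Hochberg over all genes with a mean of at least 1 TPM. Gel comparisons used the 8 gel libraries (11852 genes) and those with TC plates all 12 (11865 genes). Genes were called at an adjusted p under 0.2, the threshold of the study. The fit was also run on simulated data with known changes and independent noise for each gene and library. Such data hold no shift between libraries and no deviation shared by genes, so that run does not bear on either. Figures were drawn with matplotlib 3.10.9 in python 3.11.15, from tables made with pandas 2.3.3 and numpy 2.4.6.

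Besides the members, genes were named by rule: other CXC chemokines and receptors with a mean of at least 1 TPM, the largest called rise and fall of the NF-kB and interferon lists, the interferons and their receptors, Arg1, and the 3 genes (mean of at least 5 TPM) closest in pattern to each member with a mean of at least 1 TPM and an SD of log2 values of at least 0.5. Zmynd15, Art3, Postn, Csf3r, S100a8, S100a9, Ltf, Ly6g, Mpo, Cxcr2, Cxcr6, the chemokines near 0, Adam10, Adam17 and Sdc4 were named in addition, after their values were seen. Upstream sequences were matched by symbol to a RefSeq table of 32851 stretches, which held 7 of the 8 members. Cxcl16 was the exception.

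Alternative fits took 0.1 as the pseudocount, all genes or those with a mean of at least 5 TPM, no variance trend, median-ratio rescaling, a block for the replicate number, 0.05 as the threshold, only the compared or all 12 libraries in the fit, and each library left out in turn. Leaving out both libraries high in interferon response genes was added after seeing the data.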

Additional observations from a re-analysis of the deposited data

Results flagged for a closer look

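The IL-4 effect differed between gels and TC plates in 7 of 8 tests (4 members, each gel), by a limma test of the difference itself at an adjusted p under 0.2, where 28.0% (low-collagen gels) and 17.3% (high-collagen gels) of all genes were called. For Cxcl16 the difference was 1.76 in low-collagen gels (limma adjusted p = 0.000123) and 1.87 in high-collagen gels (9.8e-05), and for Cxcl14 it was −0.94 in both (0.00864 and 0.0108). For Cxcl10 it was 1.62 in high-collagen gels (0.0329), while in low-collagen gels it was not called (0.61, 0.333). For Cxcl2 it was 1.19 in low-collagen gels (0.187) and 1.40 in high-collagen gels (0.168), and these calls were lost in 10 of 16 and 9 of 15 alternative fits. Environment here covers embedding, plate and collagen at once, and these cannot be told apart.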

How the results depend on the processing

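Of 48 values (4 members in 12 comparisons), 33 were called, and over their 438 alternative fits 385 kept direction and call, 53 lost the call and 0 reversed. All IL-4 effects within an environment stayed called. Of the 15 not called, with 215 alternative fits, 7 became called and 17 reversed. Without IL-4, the count of members called between the gels (1) became 0 at an adjusted p under 0.05, with a pseudocount of 0.1, without the filter, at a mean of at least 5 TPM (which removes Cxcl10) and without both libraries high in interferon response genes, and 0 to 2 with each library left out. With IL-4 it (1) became 0 at an adjusted p under 0.05, without the filter, without the trend, after median-ratio rescaling and with only the compared libraries, 2 without both libraries, and 0 to 2 with each left out. For low-collagen gels against TC plates without IL-4 (2) it was 1 to 2 with each left out, where replicate 1 of untreated low-collagen gels gave 1. Why these values moved was not tested, except where stated.

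Values that reversed were not called in the fits in which their sign was reversed. They were the interaction of Cxcl2 without both libraries (−0.21), the interaction of Cxcl14 after rescaling (−0.094) and, with IL-4, Cxcl2 in high-collagen gels against TC plates after rescaling (0.011). With each library left out, the ranges that crossed 0 were −0.27 to 0.26 (Cxcl10, between gels with IL-4), −0.27 to 0.69, −0.18 to 0.18 and −0.0060 to 0.24 (interaction of Cxcl2, Cxcl14 and Cxcl16), −0.47 to 0.14 (Cxcl10, low-collagen gels against TC plates without IL-4), and −0.34 to 0.75 and −0.71 to 0.38 (Cxcl2 with IL-4, low- and high-collagen gels against TC plates).

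Same-numbered libraries showed little shared deviation (correlations of −0.123 to 0.109 over 15 pairs of conditions, 1 of them above 0.1 and 2 below −0.1), and the main fit took no block for the replicate number. Whether libraries share a culture, animal or batch under another numbering was not tested. With the replicate number as a block, the count between gels with IL-4 was 0 (Cxcl16, limma adjusted p = 0.201) in place of 1, and no other call changed. TPM carry no depth, which limits most what can be said of Cxcl1, Cxcl3, Cxcl9, Cxcl12 and of Cxcl10 with IL-4.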
